A study of Mus musculus with 4 samples.

Results

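Ager, Hopx, Rtkn2, Clic5, Cldn18, Aqp5 and Pdpn, 7 genes used to recognise alveolar type 1 (AT1) cells, were followed through lungs and primary tumors (PTs) of mice with 4T1 breast cancer. They were chosen by name as AT1 markers, with earlier results of these data known, and all 7 were found among the 19465 genes in the files. The 4T1 line comes from a mammary cancer of BALB/c mice, the strain used here. Tumors had grown for 28 days from 100000 cells placed in the mammary fat pad at 8 weeks of age. One PT section and one lung section of each mouse, here called mouse P (the lower number in the labels) and mouse Q, went through the 10X Visium assay for fixed tissue in paraffin. No lung of a mouse without tumor cells was analysed here, so both lungs carried the same treatment, and the PTs served as background. RNA is read there through pairs of probes that bind each transcript, and each probe product is counted by a unique molecular identifier (UMI) in the spot, a small disc of tissue that can hold several cells, where it was captured.

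AT1 cells are the thin, flat epithelial cells that line most of the surface of the alveoli and let gas pass to the capillaries beneath them. They lie beside the alveolar type 2 (AT2) cells, which make surfactant and can give rise to AT1 cells. Ager encodes the receptor for advanced glycation end products and is very abundant on the basal side of AT1 cells. Pdpn encodes podoplanin, a surface glycoprotein that is also found on lymphatic endothelium, mesothelium and some fibroblasts. Aqp5 encodes a water channel of the apical membrane, which is also made by airway glands. Cldn18 encodes a tight junction protein of the alveolar epithelium. Clic5 encodes a protein of the chloride intracellular channel family that associates with the actin cytoskeleton. Hopx encodes a small homeodomain protein without DNA binding of its own that acts with other transcription regulators and is also made in heart muscle.

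After spots with 200 or fewer detected genes were left out, 9339 of 9445 spots remained. There were 1697 lung spots with 11122812 UMIs in mouse P and 2780 with 30240176 UMIs in mouse Q. The PTs held 2490 spots with 13532158 UMIs and 2372 spots with 10890154 UMIs. The median spot had 6555 and 9174.5 UMIs in the lungs of mouse P and mouse Q, but 2931 and 1820 UMIs in their PTs. A level is given below as UMIs of the gene per 1000000 UMIs of the summed spots (CPM). Intervals are 95% Poisson or Clopper-Pearson intervals, which cover counting error only. Genes differ in the number and efficiency of their probes, so the 7 are not ranked by level, and the receptor genes used below as background give only a rough limit.

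The promoters of Ager and Cldn18 are shown because these 2 genes had high folds between lung and PT and both fell with the tumor gene share in the lung. The 250 bases before the start site were taken from RefSeq (GRCm38.p6, the mm10 build), and no base after that start is included. Of the 7 genes, 6 had an entry, with 8 windows in all. The windows of the inner starts of Cldn18 and Hopx lie within those genes, and the window of Aqp5 lies almost wholly within the gene as GENCODE draws it. Windows were searched on both strands for GGAATG, the core letters bound by TEAD factors, and for CAAGTG, the core letters bound by Nkx2-1. The motifs do not overlap one another, and 12.6% and 11.6% of 32851 windows of all genes held them. CAAGTG was found in 1 of the 8 windows and GGAATG in none. That window belongs to the inner start of Cldn18, where the letters, in capitals below, lie 98 bases before the start. A match describes the letters and is not evidence of binding. The counts do not separate the 2 starts of Cldn18.
Ager promoter, chr17:34597600-34597849, plus strand: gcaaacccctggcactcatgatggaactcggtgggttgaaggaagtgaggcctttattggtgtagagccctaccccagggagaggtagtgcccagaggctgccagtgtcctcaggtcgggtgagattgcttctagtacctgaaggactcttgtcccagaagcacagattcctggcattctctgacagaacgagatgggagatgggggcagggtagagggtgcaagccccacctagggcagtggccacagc
Cldn18 promoter of the outer start, chr9:99717268-99717517, minus strand: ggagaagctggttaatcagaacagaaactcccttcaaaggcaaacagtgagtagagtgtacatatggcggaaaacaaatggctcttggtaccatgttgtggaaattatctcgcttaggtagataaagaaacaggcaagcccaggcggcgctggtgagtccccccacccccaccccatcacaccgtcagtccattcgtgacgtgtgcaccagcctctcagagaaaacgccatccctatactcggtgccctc
Cldn18 promoter of the inner start, chr9:99710064-99710313, minus strand: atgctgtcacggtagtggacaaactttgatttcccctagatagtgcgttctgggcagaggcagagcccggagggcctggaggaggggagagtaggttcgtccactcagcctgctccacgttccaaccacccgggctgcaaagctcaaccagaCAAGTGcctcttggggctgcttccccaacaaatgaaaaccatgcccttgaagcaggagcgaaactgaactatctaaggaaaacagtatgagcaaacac

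The first comparison asked how far the 7 genes marked the lung over the PT. All 7 were higher in both lungs than in both PTs, and the groups did not overlap for any of them, as was so for 21.3% of the 15267 genes tested. Of these genes, 7.46% were called in either direction and 6.31% higher in lung at an adjusted p under 0.05 (edgeR's quasi-likelihood test on the 4 section sums with Benjamini-Hochberg adjustment), and all 7 AT1 genes were among these 963 genes. With the mouse as a block, 1817 genes were called in either direction in place of 1139, and all 7 AT1 genes stayed called. The median log2 difference of the 7 genes was 5.87, and that of all genes tested was -0.0046. Fewer cells of a type and less RNA per cell cannot be told apart in such sums.

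Ager (chr17:34597862-34600936 in GENCODE M21) had 1262 CPM in the lung of mouse P and 546 CPM in the lung of mouse Q. In the PTs it had 4.58 and 8.54 CPM. The log2 difference between lung and PT was 7.48 (SE 0.74, edgeR adjusted p = 0.00225), and both lungs lay far above both PTs. Clic5 (chr17:44188584-44280172) had 430 and 172 CPM in the lungs and 1.63 and 5.88 CPM in the PTs. Its log2 difference was 6.73 (SE 0.80, edgeR adjusted p = 0.00419). For the junction gene Cldn18 (chr9:99689461-99717267) the lungs held 280 and 102 CPM. The PT of mouse P held only 5 Cldn18 UMIs, or 0.37 CPM (interval 0.12 to 0.86), and that of mouse Q held 3.67 CPM. The fitted log2 difference of 6.99 (SE 0.99, edgeR adjusted p = 0.00615) therefore rests on few UMIs in the PT. Both PT levels lie within the background given below, and the fitted log2 difference was 9.21 when the PT of mouse Q was left out.

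Hopx (chr5:77086988-77115121), the regulator, had 403 and 250 CPM in the lungs of mouse P and mouse Q and 5.69 and 8.45 CPM in the PTs. The log2 difference was 5.87 (SE 0.54, edgeR adjusted p = 0.00148). The water channel gene Aqp5 (chr15:99590782-99594829) had 78.1 and 40.0 CPM in the lungs and 1.70 and 4.50 CPM in the PTs. It differed by 4.62 on the log2 scale (SE 0.62, edgeR adjusted p = 0.00525). Pdpn and Rtkn2 had the smallest differences of the 7. Pdpn (chr4:143267431-143299564) had 99.97 and 71.5 CPM in the lungs and 12.9 and 10.1 CPM in the PTs, a log2 difference of 3.22 (SE 0.43, edgeR adjusted p = 0.00523). Rtkn2 (chr10:67979570-68059740) had 103 and 49.5 CPM in the lungs and 11.2 and 14.3 CPM in the PTs, a log2 difference of 2.93 (SE 0.50, edgeR adjusted p = 0.0103).

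**Figure D1:**
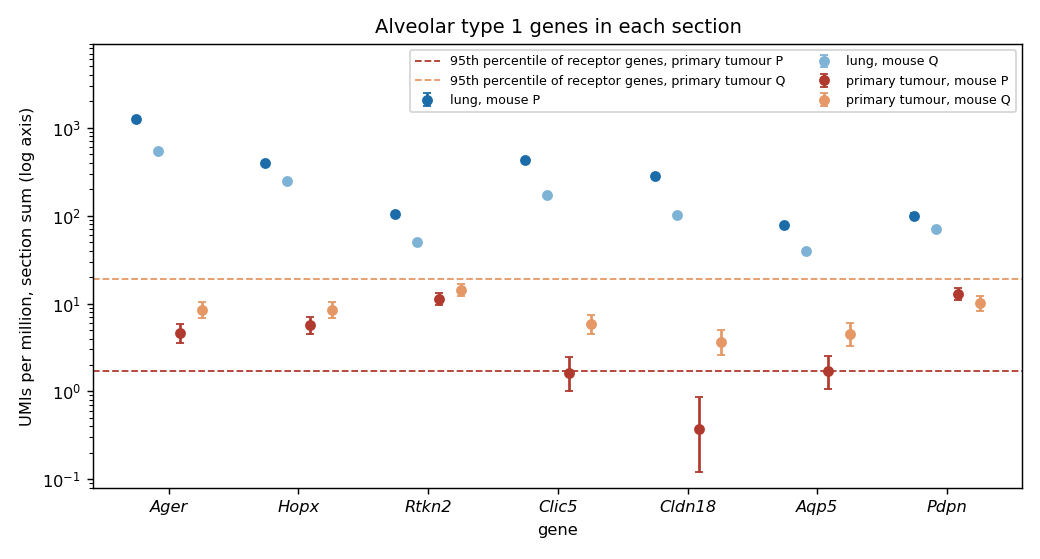
Level of the 7 AT1 genes in each section, in CPM on a log axis, with one point per section and 95% Poisson intervals as bars; dashed lines give the 95th percentile of 1178 odorant and vomeronasal receptor genes in each PT. Both lungs lie above both PTs for each gene, with Ager at 1262 and 546 CPM in the lungs, and all 7 genes of the PT of mouse Q lie under its dashed line at 19.0 CPM.

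The level in the PTs was set against 1178 odorant and vomeronasal receptor genes, which are mostly silent outside the nose. In the PT of mouse P these had a median of 0.59 CPM and a 95th percentile of 1.70 CPM. Ager, Hopx, Rtkn2 and Pdpn lay above that percentile and Clic5 and Cldn18 below it, while Aqp5 was equal to it to 3 digits. The PT of mouse Q stood apart, with a median of 6.61 CPM and a 95th percentile of 19.0 CPM for the receptor genes, and all 7 AT1 genes lay under that percentile. Their levels in that section cannot be told from background. In the lungs the 95th percentile was 0.54 CPM in mouse P and 0.40 CPM in mouse Q, far under each of the 7 genes. With either PT left out the 7 genes were called too, but the lone PT is then assumed to vary like the lungs, which alone supply the spread. Without the PT of mouse P the number of genes called rose to 6604, of which 5217 were lower in lung. It was 2519 without the lung of mouse Q. Leaving out 1 section moved the fitted log2 difference most for Cldn18, to 9.21 without the PT of mouse Q. For this gene it was 6.10 without the lung of mouse P, 6.39 without the PT of mouse P and 7.86 without the lung of mouse Q. For Ager it was 6.74 and 8.26 without the lung of mouse P and of mouse Q, for Rtkn2 2.30 and 3.66, and for Aqp5 4.07 and 5.35, or 5.31 without the PT of mouse Q. For Clic5 it was 5.92 and 7.55, or 7.74 without the PT of mouse Q. For Hopx it was 6.49 without the lung of mouse Q and at least 5.49 otherwise, and for Pdpn it ran from 2.92 to 3.74.

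Both PTs were poor in AT1 UMIs spot by spot. Summed over the 7 genes there were 17.4 and 13.4 UMIs per spot in the lungs of mouse P and mouse Q, and 0.21 and 0.25 in the PTs. No UMI of any of the 7 was found in 83.3% and 78.0% of the PT spots, but in only 1.30% and 2.27% of the lung spots. All 7 were found together in 146 spots (8.60%) of the lung of mouse P and 185 spots (6.65%) of the lung of mouse Q, and in 0 PT spots. At least 5 of the 7 were found in 60.2% and 46.7% of the lung spots. Ager had a UMI in 95.6% of the spots in the lung of mouse P (interval 94.5 to 96.5%) and in 89.9% in that of mouse Q (interval 88.7 to 91.0%). Across the PTs, the share of spots with a UMI ran from 0.20% for Cldn18 to 6.35% for Pdpn, both in mouse P. Since lung spots were deeper, each spot was also thinned to 2000 UMIs, and shallower spots were left out (75 and 82 lung spots, 1108 and 1331 PT spots of mouse P and mouse Q). Ager then had a UMI in 87.3% and 63.0% of the lung spots and in 1.01% and 1.92% of the PT spots.

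The lungs themselves differed. All 7 genes were higher in CPM in the lung of mouse P than in that of mouse Q, from 1.40-fold for Pdpn to 2.74-fold for Cldn18. The summed level was 2656 CPM in mouse P (interval 2626 to 2687) and 1231 CPM in mouse Q (interval 1218 to 1243). Over single spots, the summed level had a median of 2698 CPM in mouse P, with 10% of spots under 1137 CPM and 10% above 4066 CPM. In mouse Q the median was 1416 CPM and these limits were 207 and 2724 CPM. The tumor genes Csf3, Mmp3 and Hmga2 summed to 54.5 CPM in the lung of mouse P and 736 CPM in that of mouse Q. Other lists were also higher in mouse P, with 3084 and 1493 CPM for 18 other genes known from AT1 cells, 11800 and 6924 CPM for genes of alveolar type 2 (AT2) cells, 1661 and 810 CPM for capillary endothelial genes and 74870 and 29817 CPM for neutrophil genes. Fibroblast genes were lower in mouse P, at 838 against 1820 CPM. Mesothelial genes (29.4 against 293 CPM), heart muscle genes (280 against 440 CPM) and alveolar transcription regulators (661 against 717 CPM) were lower there too. With 1 lung per mouse, the difference between the lungs has no replicate and was not tested.

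Other genes known from AT1 cells were also set against the PT. Of 18 such genes, 11 were called higher in lung, 0 lower, and 7 were not called. Sec14l3, a lipid-binding protein gene, had 771 and 325 CPM in the lungs and no UMI in either PT. That makes it at least 1179-fold higher, with 3 UMIs per PT library as the limit that a count of 0 allows. Cav1, a coat protein of caveolae, rose by 2.41 on the log2 scale, and Emp2, a membrane protein gene with 330 and 220 CPM in the lungs, differed by 0.75 without passing the test (edgeR adjusted p = 0.323). Vegfa, which signals to the capillaries, differed by 0.90 (edgeR adjusted p = 0.412). The other genes called higher were Spock2 (5.45), Clic3 (4.67), Igfbp2 (4.21), Akap5 (3.79), Gramd2 (3.34), Ndnf (2.86), Sema3a (2.86), Lmo7 (2.45) and Gprc5a (2.24), each with its log2 difference. Of 10 transcription regulators of the alveolar epithelium, 2 were called higher in lung. These were Nkx2-1 (log2 difference 5.92), which is needed for alveolar cell identity, and Cebpa (2.64). Yap1 and Wwtr1, the effectors of the Hippo pathway that act with Tead1 in AT1 cells, and Tead1 itself had log2 differences of -0.48, -0.38 and -0.04, none of which passed the test.

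Genes of several other cell types moved with the 7 genes between the tissues. AT2 genes were higher in lung in 7 of 7 cases and capillary endothelial genes in 6 of 6. The same held for 4 of 5 neutrophil genes (median log2 difference 5.10), 3 of 4 airway genes (5.39) and 3 of 4 cardiac genes (3.45), against a median of 5.87 for the 7. The AT2 genes summed to 11800 and 6924 CPM in the lungs and 54.7 and 76.1 CPM in the PTs, led by Sftpc (log2 difference 11.39). None of these AT2 or capillary genes was at 0 in any section. Of the fibroblast genes 2 of 5 were called higher in lung (median log2 difference 0.90). The same held for 1 of 3 lymphatic endothelial genes (0.03) and 0 of 5 mesothelial genes (-0.46).

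The second comparison asked how the 7 genes changed across lung spots of rising tumor gene share. The share was the sum of UMIs of Csf3, Mmp3 and Hmga2, taken as genes of the tumor cells, over all UMIs of the spot. Spots without a UMI of the 3 genes formed one bin, and the remaining spots of each lung were cut by rank into equal bins called low, middle and high. In mouse P these bins held 1364, 111, 111 and 111 spots, and in mouse Q they held 479, 767, 767 and 767 spots. The bins are not alike in both lungs. The high bin ran from 284 to 1631 CPM of the 3 genes in mouse P and from 791 to 3541 CPM in mouse Q.

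By CPM, 5 of the 7 genes were lower in spots of high tumor gene share than in spots without a tumor gene UMI. These were Ager, Hopx, Rtkn2, Clic5 and Cldn18, while Aqp5 and Pdpn did not pass the test. The background was wide, since 39.2% of the 13096 genes tested were called, 19.6% lower and 19.6% higher (edgeR's quasi-likelihood test on the 8 sums of lung and bin with the mouse as a block, Benjamini-Hochberg adjustment). The median log2 difference of the 7 genes was -1.17, against -0.003 for all genes tested. The 5 calls were lost when the mouse was not a block, where 1 of all genes and 0 of the 7 were called, and when the share was taken over a spot with its neighbours, where 65 and 0 were called. The fitted log2 differences of the 5 genes were then -0.95 (Cldn18) to -1.44 (Hopx) without the block and -0.74 (Ager) to -1.42 (Hopx) with neighbours. With Hmga2 left out of the share 2 of the 7 were called, and Ager (-1.13), Clic5 (-1.42) and Cldn18 (-1.05) lost the call with adjusted p-values of 0.0515 to 0.0620 in edgeR. With neighbours the bin without tumor UMIs held only 13 spots in mouse Q.

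Ager had 1298, 1190, 1224 and 977 CPM in the bins without, with low, middle and high share in the lung of mouse P. In that of mouse Q it had 921, 861, 606 and 245 CPM. The level of the high bin was thus 75.3% of that in spots without tumor UMIs in mouse P and 26.6% in mouse Q. The fitted log2 difference was -1.27 (SE 0.37, edgeR adjusted p = 0.0296). Cldn18 had 292, 238, 259 and 218 CPM in mouse P and 157, 154, 114 and 53.0 CPM in mouse Q. It differed by -1.15 (SE 0.32, edgeR adjusted p = 0.0242).

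Hopx and Clic5 fell furthest of the 7. Hopx had 419, 361, 379 and 298 CPM along the bins of mouse P and 487, 432, 268 and 82.0 CPM along those of mouse Q, a fitted log2 difference of -1.62 (SE 0.49, edgeR adjusted p = 0.0318). Clic5 had 450, 344, 429 and 322 CPM in mouse P and 335, 280, 198 and 58.3 CPM in mouse Q, a log2 difference of -1.58 (SE 0.48, edgeR adjusted p = 0.0342). The high bin of mouse Q held 16.8% of the Hopx level and 17.4% of the Clic5 level of the spots without tumor UMIs. Rtkn2 had 109, 81.8, 86.4 and 86.2 CPM in mouse P and 78.5, 77.9, 49.4 and 27.3 CPM in mouse Q, a log2 difference of -1.17 (SE 0.34, edgeR adjusted p = 0.0279). In mouse Q these 3 genes, Ager and Cldn18 were lower at each step of the share. In mouse P none of the 7 was lower at each step.

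By CPM, Aqp5 and Pdpn differed in direction between the lungs in these bins. Counted as UMIs per spot they did not. The high bin then held 116% of the Aqp5 UMIs of spots without tumor UMIs in mouse P and 113% in mouse Q. For Pdpn it held 135% and 139%. The difference in direction of Pdpn by CPM held in all 8 settings of spots and bins tried. Aqp5 by CPM in mouse P was above 0 in 5 of them and below 0 in 3. Those 3 were bins from 2000 UMIs (log2 ratio -0.28), limits over both lungs (-0.10) and the share over neighbours (-0.0051). Pdpn had 95.3, 107, 118 and 127 CPM in the bins of mouse P, where it was higher at each step. In mouse Q it had 92.0, 95.1, 82.9 and 45.9 CPM. The fitted log2 difference was -0.50 (SE 0.32, edgeR adjusted p = 0.241). Aqp5 had 77.7, 80.8, 69.1 and 89.1 CPM in mouse P and 55.3, 55.8, 47.7 and 22.5 CPM in mouse Q, a log2 difference of -0.78 (SE 0.36, edgeR adjusted p = 0.111). The high bin of mouse P held only 90 Pdpn UMIs (level interval 102 to 156 CPM) and 63 Aqp5 UMIs (interval 68.4 to 114 CPM), and the latter interval includes the level in spots without tumor UMIs.

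**Figure D2:**
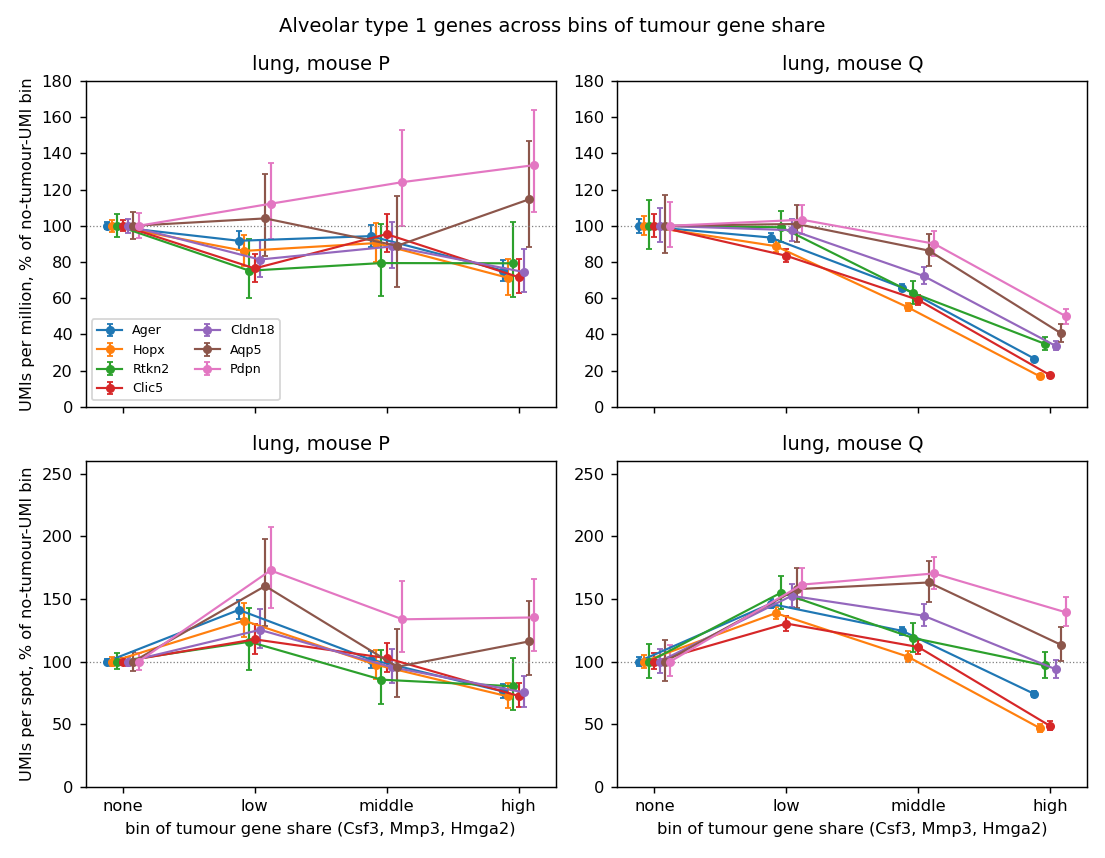
Levels of the 7 AT1 genes across bins of tumor gene share in the lung of mouse P (left) and mouse Q (right), as percent of the level in spots without a UMI of Csf3, Mmp3 and Hmga2; the upper panels give CPM, the lower panels UMIs per spot, and bars are 95% Poisson intervals of the counts of each bin. By CPM the high bin of mouse Q lies between 16.8% (Hopx) and 49.9% (Pdpn), while per spot it lies between 46.9% and 139%.

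Depth moved with the bins in mouse Q, where the median spot had 5569, 8530, 9765 and 15132 UMIs from the bin without tumor UMIs to the high bin. In mouse P it had 6346, 9380, 6460 and 5330 UMIs. Counted as UMIs per spot, the fall in mouse Q was smaller. The sum of the 7 genes in the high bin was 25.1% of that in spots without tumor UMIs by CPM and 70.0% per spot. In mouse P these values were 77.3% and 78.2%. Per spot, the high bin of mouse Q held 46.9% of the Hopx UMIs, 48.5% of those of Clic5, 74.1% of those of Ager, 93.9% of those of Cldn18 and 96.9% of those of Rtkn2. For Aqp5 and Pdpn it held more, 113% and 139%. Thus 2 of the 5 genes called lower, Rtkn2 and Cldn18, kept nearly the same UMIs per spot in mouse Q while the total of the spot rose. The part of depth in the differences in CPM was not tested. With bins set from 2000 UMIs drawn per spot, all 7 genes were called lower in the fit over both lungs. The high bin of mouse P then held 22 spots and its middle bin none. In that lung Pdpn was at 136% of its level in spots without tumor UMIs. The drawn UMIs set only the bins, and the levels still used all UMIs of the spots.

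**Figure D3:**
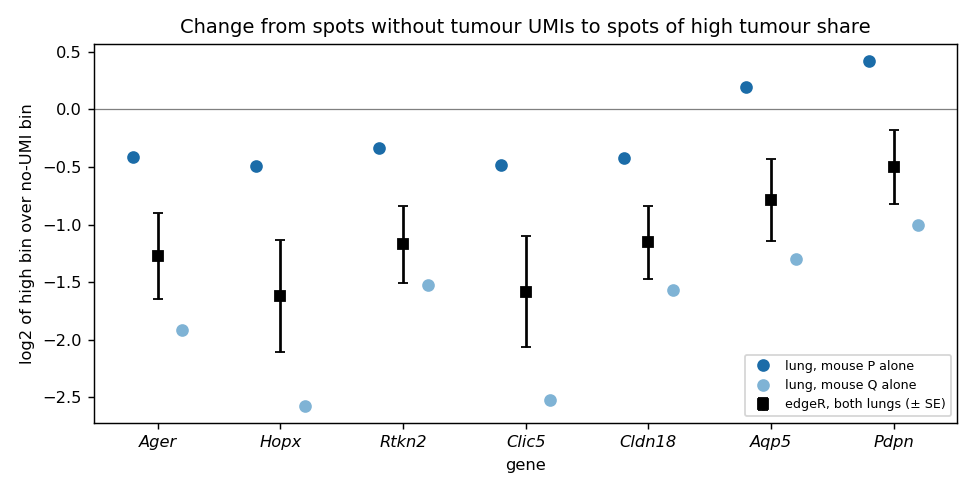
Log2 difference of the 7 AT1 genes between lung spots of high tumor gene share and lung spots without a tumor gene UMI; squares give the edgeR fit over both lungs with its SE and circles give the ratio of levels in each lung alone. The lung of mouse Q lies below that of mouse P for each gene, at -2.57 against -0.49 for Hopx, and Aqp5 and Pdpn lie above 0 in mouse P.

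In CPM, the level at high share relative to spots without tumor UMIs was lower in mouse Q for each of the 7 genes. Counted per spot this did not hold, since Rtkn2 was at 80.3% in mouse P and 96.9% in mouse Q, and Cldn18 at 75.4% and 93.9%. With the share over neighbours it did not hold for Rtkn2 in CPM either (log2 ratio -0.62 in mouse P and -0.56 in mouse Q). For Ager the log2 ratio was -0.41 in mouse P and -1.91 in mouse Q, for Clic5 it was -0.48 and -2.52, and for Rtkn2 it was -0.34 and -1.53. This difference between mice was not tested, since each has 1 lung. When the limits of the bins were set over both lungs together, the high bin of mouse P held 20 spots. Ager was then at 71.3% of its level in spots without tumor UMIs in mouse P and at 27.7% in mouse Q, and Pdpn at 162% and 52.1%. Cldn18 was at 43.4% and 34.1%, with 14 UMIs in the high bin of mouse P.

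**Figure D4:**
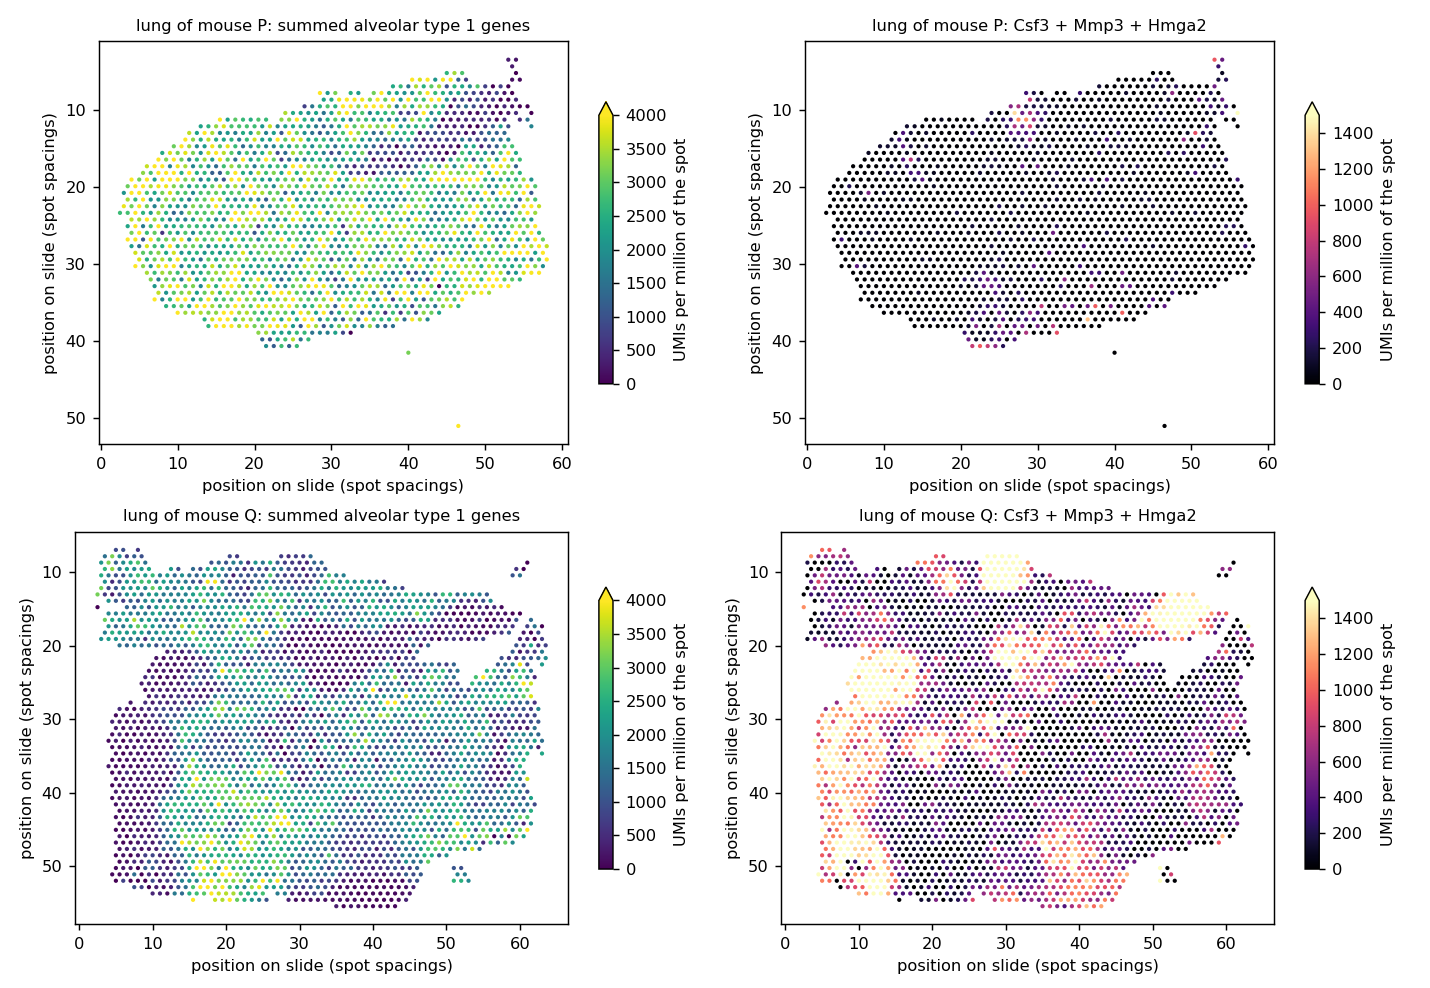
Lung sections of mouse P (top) and mouse Q (bottom) on the slide, with one dot per spot and axes in spot spacings; the left panels are colored by the summed level of the 7 AT1 genes and the right panels by Csf3, Mmp3 and Hmga2, in CPM of the spot, with colors capped at the upper end of each scale. In mouse Q patches rich in the tumor genes are low in AT1 genes, and in mouse P the tumor genes are sparse, at 54.5 CPM in all; a band low in AT1 genes at the upper right of that section is low in tumor genes toward its left and holds spots with tumor gene UMIs at its right end.

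Of 18 further genes of AT1 cells, 12 were called lower in spots of high share, 0 higher, and 6 were not called (19.6% of all genes were called lower). Among the most abundant, Sec14l3 fell by 2.05, Cav1 by 1.14 and Cav2 by 0.57 on the log2 scale, while Emp2 (-0.45) and Vegfa (-0.47) did not pass the test. Col4a3 and Col4a4, chains of the collagen network in the basement membrane shared with the capillaries, fell by 1.70 and 1.79. Igfbp2, known from mature AT1 cells, fell by 1.84. The others called lower were Akap5 (-1.66), Clic3 (-1.63), Gramd2 (-1.61), Spock2 (-1.52), Sema3a (-1.17) and Lmo7 (-1.07). Of the 10 transcription regulators, 4 were called lower, namely Foxa2 (-1.87), Nkx2-1 (-1.48), Foxa1 (-1.28) and Cebpa (-1.003). Another 2 of the 10 were called higher in spots of high share, close to the 19.6% of all genes called higher. These were Yap1 (0.82) and Tead1 (0.54), which many cell types make. Wwtr1 (0.36) did not pass the test.

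Genes of the other cells of the lung were set beside the 7, where 19.6% of all genes tested were called lower and 19.6% higher. Of the AT2 genes, 3 of 7 were called lower, Napsa (-1.95), Lamp3 (-1.15) and Abca3 (-0.71), while Sftpc differed by -1.11 (edgeR adjusted p = 0.0617). Their summed level went from 12028 CPM without tumor UMIs to 10131 CPM at high share in mouse P and from 10652 to 3128 CPM in mouse Q. Of the capillary genes 5 of 6 were called lower, including Car4 (-1.89) and Ednrb (-1.79). They summed to 1721 and 1291 CPM in these bins of mouse P and to 1385 and 392 CPM in mouse Q. Counted per spot, the falls in mouse Q were smaller. The high bin then held 85.3% in mouse P and 81.9% in mouse Q of the AT2 UMIs of spots without tumor UMIs. For the capillary genes it held 75.9% and 78.9%. The ratio of the 7 genes to the AT2 genes was 0.228 without tumor UMIs and 0.209 at high share in mouse P, and 0.200 and 0.171 in mouse Q. The ratio to the capillary genes was 1.59 and 1.64 in mouse P and 1.54 and 1.36 in mouse Q. The ratio to the 18 further AT1 genes was 0.863 and 0.883 in mouse P, but 0.926 and 0.576 in mouse Q, where their sum at high share was 40.3% of that in spots without tumor UMIs by CPM and 112% per spot.

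Neutrophil genes, 5 of 5 called lower (log2 -1.84 to -1.97), went from 79234 to 46842 CPM in mouse P and from 63320 to 7516 CPM in mouse Q. Airway genes were called lower in 3 of 4 cases, and their sum went from 589 to 455 CPM in mouse P and from 817 to 147 CPM in mouse Q. Fibroblast genes were called higher in 3 of 5 cases, Col1a1 by 1.15, Col3a1 by 0.89 and Col1a2 by 0.61. The mesothelial list summed to 24.1 and 72.1 CPM in these bins of mouse P and to 89.4 and 447 CPM in mouse Q. Of its 3 genes tested Msln was called higher (1.93), while Wt1 (2.14) and Lrrn4 (-0.28) did not pass the test. With a median of 1.08 and 2.48 CPM per gene over the whole lungs, few genes made up most of the sum. Of the lymphatic endothelial genes 1 of 3 was called, Lyve1 (-1.53), where 39.2% of all genes were called in either direction. The heart muscle genes did not pass the test, with Myh6 at -1.04 (edgeR adjusted p = 0.0784). Of 3 further genes taken as tumor genes, Plau (2.76) and Tnc (2.06) were called higher and Csf2 (-0.15) was not called. Between lung and PT none of these 3 was called. None of the AT2, capillary, airway or neutrophil genes was at 0 in a lung, and their part in the result was not tested.

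Across the spots of each lung the 7 genes went together only loosely. On log2 values of CPM with 1 added, the 21 pairs had Pearson correlations of 0.08 to 0.40 (median 0.13) over the 1697 spots of mouse P and of 0.08 to 0.47 (median 0.16) over the 2780 spots of mouse Q. In the PTs they ran from -0.03 to 0.06. The highest pairs were those among Ager, Hopx and Clic5, with Ager and Hopx at 0.33 and 0.47 and Ager and Clic5 at 0.40 and 0.44. Rtkn2 with Pdpn gave 0.08 and 0.11. Spots of a section share its library and differ in depth. Rtkn2, Aqp5 and Pdpn had under 1 UMI per spot in both lungs, and the part of this in their low values was not tested. These correlations are given as a description.

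**Figure D5:**
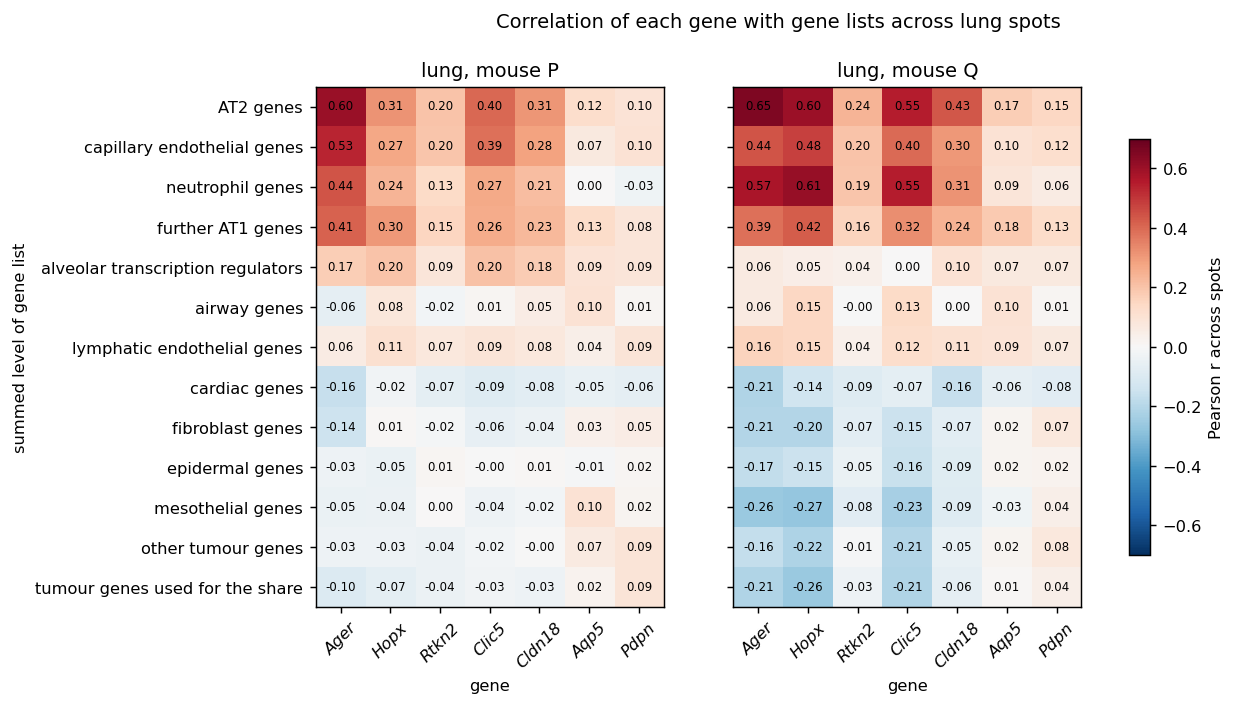
Pearson correlation across the spots of each lung between each AT1 gene and the summed level of 13 gene lists, on log2 values of CPM with 1 added; the color and the number give r. Ager has 0.60 and 0.65 with the AT2 genes and -0.10 and -0.21 with the tumor genes, and the columns of Aqp5 and Pdpn are pale for each list.

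With the AT2 genes Ager had correlations of 0.60 in mouse P and 0.65 in mouse Q, and Hopx had 0.31 and 0.60. With the tumor genes of the share, Hopx had -0.07 and -0.26, Clic5 had -0.03 and -0.21 and Pdpn had 0.09 and 0.04. Of 8150 genes with a UMI in at least 10% of the spots of each lung, the 10 outside the 7 whose pattern was most like their sum were ranked by the lower of the 2 correlations. They were Sftpc (0.60 and 0.66), Epas1 (0.53 and 0.53), Cd36 (0.49 and 0.51), Sftpa1 (0.45 and 0.56), Calcrl (0.43 and 0.49), Ace (0.43 and 0.51), Lcn2 (0.43 and 0.53), Cldn5 (0.43 and 0.47), S100a9 (0.42 and 0.65) and Gpx3 (0.47 and 0.41). Sftpc and Sftpa1 are surfactant genes of AT2 cells. Epas1, Cd36, Calcrl, Ace and Cldn5 are known from endothelium, and Lcn2 and S100a9 from neutrophils. Lcn2 and S100a9 left the 10 both in spots of at least 2000 UMIs and when ranks were used. None of the 10 belongs to the further AT1 genes. Ager made up 1262 of the 2656 CPM of the sum in mouse P and 546 of the 1231 CPM in mouse Q. Of the 7 themselves, Ager ranked 1, Clic5 5, Hopx 7 and Cldn18 17. Rtkn2, Pdpn and Aqp5 ranked 57, 127 and 135, although each is part of the sum. These places depend on the measure, since with rank correlations Cldn18 was at 4 and Rtkn2, Pdpn and Aqp5 were at 7, 21 and 36.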

How the data were processed

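The authors deposited UMI counts per gene and spot with spot positions for 4 sections, made with Space Ranger 2.0.0 on the mm10 build per the labels and the study's methods; probe counts were not normalized before deposit. Spots with over 200 genes were kept. All spots lay under tissue. The slides share one list of spot barcodes, so 1342 barcodes occur in all sections and mark positions, not shared cells. UMIs were summed per section, or per lung and bin of tumor gene share, and tested in edgeR 4.0.16 (R 4.3.3; TMM, filterByExpr, quasi-likelihood F-test, Benjamini-Hochberg, threshold 0.05). SE is the log2 difference over the root of F. The lung and PT fit had tissue only. Same-numbered sections come from the same animal per the labels, although their deviations from the tissue means correlated at -0.168 over 9776 genes, so the mouse as a block was an alternative. The fit across bins had the mouse as a block, since bins of a mouse come from 1 section. With 2 mice p-values reflect few animals, and an exact two-sided permutation of 2 against 2 sections cannot go below 0.333. Correlations used Python 3.11.15 on log2(CPM + 1). Alternatives were DESeq2 1.42.0, no TMM, no filter, all spots, no heart-rich spots (at least 1% heart genes), other bins and each section left out. The scripts were tested on simulated data.

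The named genes were the 7 members, up to 4 of the most abundant genes of a list, called genes of the AT1 and regulator lists and the 10 most alike genes. Some other called list genes were named after their values were seen. The members and lists were chosen with earlier results of these data known. Of the lists, Sftpb, Scgb1a1, Actc1, Ccl21a and Hmga1 were not analysed here, nor were histology outlines or human data.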

Additional observations from a re-analysis of the deposited data

Results flagged for a closer look

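By CPM, some values went in opposite directions in the 2 lungs between spots of high tumor gene share and spots without a tumor gene UMI. These differences between the lungs were not tested, since each mouse gave 1 lung section. For Pdpn the log2 ratio of levels was 0.42 in the lung of mouse P and -1.002 in that of mouse Q. For Aqp5 it was 0.20 and -1.30, and under 3 of 8 settings of spots and bins it was below 0 in mouse P too. The sum of the heart muscle genes gave 0.25 and -1.21 in the same order. The sum of the epidermal genes, keratin genes and Lor, gave -0.38 in mouse P and 1.44 in mouse Q. The high bins held 6 and 399 UMIs of these genes. Counted as UMIs per spot, only the epidermal sum went in opposite directions (log2 ratio -0.37 in mouse P and 2.92 in mouse Q). Per spot, Pdpn (0.44 and 0.48), Aqp5 (0.21 and 0.18) and the heart muscle sum (0.27 and 0.27) were higher at high share in both lungs.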

How the results depend on the processing

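All 7 AT1 genes were called higher in lung under each of the 11 alternatives to the main fit, 77 results in all, with the lowest log2 difference at 2.30 (Rtkn2) and the highest edgeR or DESeq2 adjusted p at 0.0447. The count of all genes called was 1139 in the main fit (963 higher and 176 lower), 2644 in DESeq2 (1436 higher and 1208 lower), 2022 without a filter on low counts and 328 with total UMIs only, where the median log2 difference of all genes was -0.31. It was 1817 with the replicate block and 2565 when the mice were paired crosswise, which was added after the data were seen. Leaving out 1 section gave 883 to 6604 genes. Across bins of tumor gene share, 5140 genes and 5 of the 7 were called in the main fit. With no replicate block, the alternative to the paired fit, 1 gene (3696 at an unadjusted p under 0.05) and 0 of the 7 were called, with a log2 difference of -1.03 for Ager. With the share over neighbours, 65 genes (2655 unadjusted) and 0 of the 7 were called, and without Hmga2 in the share 2 of the 7, with Ager at -1.13, Clic5 at -1.42 and Cldn18 at -1.05. With limits over both lungs 8254 genes were called. Total UMIs only turned 2572 higher and 2568 lower calls into 3453 and 2010, with a median of 0.17 over all genes and 5 of the 7 called. Keeping all spots changed nothing here, since no lung spot had been removed. Of 55 other tested results for the 5 called AT1 genes 42 kept the call and 13 lost it, and of 22 for Aqp5 and Pdpn 6 gained one, with no change of direction. For Aqp5 and Pdpn the value by CPM in 1 lung alone ran from -1.30 to 0.20 and from -1.002 to 0.42 in the main bins. Over 8 settings of spots and bins it ran from -2.34 to 0.30 and from -1.499 to 0.69. The causes of these shifts were not tested. Of the 10 most alike genes, 6 were shared when ranks were used and 8 in spots of at least 2000 UMIs. The limits are 2 mice, spots that mix cells, and the depth: genes under about 1 UMI per spot were missed in most spots, so a spot without a UMI may hold the RNA.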

Other observations

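Within the PTs the summed level of the 7 AT1 genes, by the same bins, was 53.0, 32.6, 41.8 and 39.0 CPM in mouse P, where the bin without tumor gene UMIs held 6 UMIs of the 7. In the PT of mouse Q it was 192, 105, 60.1 and 35.9 CPM. The receptor genes used as background moved in the same order in that section, from 40746 to 4446 CPM in sum. By the higher of the correlations in the 2 lungs, the genes most opposite to the 7 across spots included Itgb4, an integrin chain of epithelial anchoring, which gave -0.25 and -0.26 in mouse P and mouse Q. Ank gave -0.21 and -0.28, and Tnnt2, a heart muscle gene, gave -0.21 in both.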
